A study of Mus musculus with 12 samples.

Results

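The comparison described here sets empty vector muscle of mice on doxycycline chow (EV_DOX) against empty vector muscle of mice on normal chow (EV), across all genes and with 3 RNA-seq libraries a side. These 6 libraries were taken by their labels from the 12 of the series. All came from whole tibialis anterior muscle, the fast muscle at the front of the lower leg, of male C57BL/6 mice. Both groups carried the same injection, made when the mice were 8 weeks old, of the adeno-associated viruses AAV:TET and AAV:MCS, of which AAV:MCS is the empty vector. After 7 days on standard chow the EV_DOX mice received chow with 600 mg/kg doxycycline and the EV mice stayed on standard chow. The labels give a further 2 or 7 days and do not say which holds for these libraries. The opposite leg of each mouse received the Dux vector, and its libraries (DUX_DOX and DUX, 3 each) enter below only to show the chow difference in a second set of muscles. No label ties a library to an animal, so p-values measure the spread between these libraries, which may be technical. In whole muscle, fewer cells of a type and less RNA per cell cannot be told apart.

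Doxycycline is a tetracycline antibiotic that switches tetracycline-controlled genes on or off, and it is fed to mice for that purpose. It blocks protein synthesis on bacterial ribosomes and also binds the ribosomes of mitochondria, and cells exposed to it are known for an imbalance between mitochondrially encoded and nuclear encoded respiratory subunits and for the Atf4-driven stress response. It also inhibits matrix metalloproteinases, the enzymes that cut collagen and other matrix proteins. EV_DOX against EV is the arm of the design in which the chow changes in muscle without the Dux vector. The same chow switched Dux on in the opposite leg of the EV_DOX mice. Effects of the chow and of Dux in the other leg therefore cannot be told apart in this comparison.

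The 6 libraries were of like depth, from 12870423 to 13401394 counts in EV_DOX and from 12734457 to 13385608 counts in EV. The muscle markers were high in every library. Acta1, skeletal actin, stood at 27767, 29469 and 32568 counts scaled to library size (CPM, counts per 1000000) in EV_DOX and at 28961, 32307 and 29906 CPM in EV, and Ckm, muscle creatine kinase, stood at 17078 to 20910 CPM in EV_DOX and 18264 to 18740 CPM in EV. The wider list of 19 measured Dux target entries summed to 28.2, 32.5 and 32.2 CPM in EV_DOX and to 29.2, 32.3 and 28.8 CPM in EV. The 14 Dux target genes chosen as silent in muscle summed to 4, 0 and 2 counts in EV_DOX and to 0, 0 and 2 counts in EV. In DUX_DOX they summed to 4370, 7646 and 5035 counts. Counts at or near 0 with the empty vector follow from that choice and are no result about the chow. Some libraries stood apart from the others of their group: EV_DOX 2 in slow fibre and Schwann cell genes, EV_DOX 1 and EV 3 in tendon genes, and EV 2 in interferon genes. Values without them are given below for results that rest on them, though not for every gene.

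Doxycycline chow left most of the transcriptome of empty vector muscle without a detected difference. Of 12751 genes tested, 5 passed an adjusted p of 0.05 in the quasi-likelihood F test of edgeR with Benjamini-Hochberg adjustment, which is 0.0392% of the genes. All 5 were higher in EV_DOX and 0 were lower (0%). An unadjusted p under 0.05 was reached by 999 genes (7.83%), 491 higher (3.85%) and 508 lower (3.98%) in EV_DOX. The same fit called 3772 genes (29.6%) for DUX_DOX against DUX, where doxycycline also switched Dux on. The median absolute log2 fold change over all genes was 0.12 for EV_DOX against EV and 0.26 for DUX_DOX against DUX. More than a 2-fold difference was seen for 69 genes (0.541%) in the empty vector comparison, 3 of them past the threshold, and for 818 genes (6.42%) in the Dux comparison. The median standard error of a log2 fold change was 0.14. The count of 5 depended on the model, with 12 genes in DESeq2 (11 higher, and Aqp4 lower), 0 in limma-voom and 0 in a fit of the empty vector libraries alone. It also depended on single libraries, with 10 genes without EV_DOX 1, 1 without EV_DOX 2, 2 without EV 1, and 0 without EV_DOX 3, EV 2 or EV 3. Over these 6 fits Scand1 passed in 3, Ccdc85b in 2, and Phospho1, Mafa and Bmyc in 1 each.

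The 5 genes that rose were all of low level. Scand1, a SCAN domain protein that binds transcription factors, had 8.47, 8.44 and 12.8 CPM in EV_DOX, against 4.23, 2.81 and 2.61 CPM in EV. EV_DOX 3 was the highest, and all EV_DOX libraries stood above all EV libraries. The log2 fold change was 1.62 (SE 0.21, adjusted p 0.0284, edgeR), the largest of the 5. Phospho1, a phosphatase of phosphoethanolamine and phosphocholine known for its part in bone mineralisation, had 4.60, 5.89 and 6.96 CPM in EV_DOX and 2.04, 2.65 and 2.38 CPM in EV. It rose by 1.30 on the log2 scale (SE 0.20, adjusted p 0.0465, edgeR), with all EV_DOX libraries above all EV libraries.

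Mafa is a leucine zipper factor of the large Maf family, best known for driving the insulin gene in pancreatic beta cells. It had 18.5, 25.5 and 20.0 CPM in EV_DOX and 11.7, 10.3 and 10.1 CPM in EV. The EV libraries lay close together, and the log2 fold change was 0.99 (SE 0.15, adjusted p 0.0465, edgeR). Bmyc, a short relative of Myc that lacks its DNA-binding part, had 5.55, 6.43 and 5.95 CPM in EV_DOX and 3.45, 2.65 and 2.99 CPM in EV, a rise of 0.98 on the log2 scale (SE 0.15) with an adjusted p of 0.0465 in edgeR. Ccdc85b, a coiled-coil protein named delta-interacting protein A in human, had 11.0, 12.9 and 15.4 CPM in EV_DOX, against 7.45, 5.21 and 4.53 CPM in EV. It rose by 1.19 on the log2 scale (SE 0.19, adjusted p 0.0465, edgeR), and again the groups did not overlap.

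**Figure D1:**
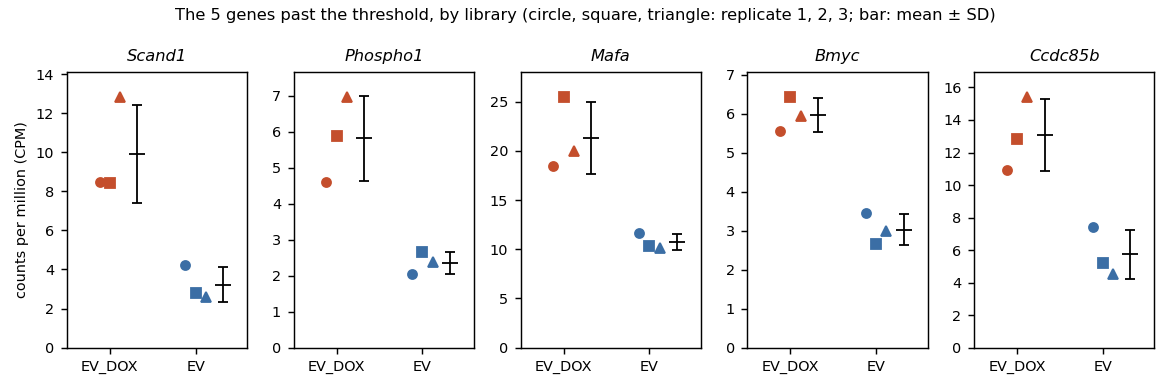
The 5 genes past the threshold. Each panel shows the CPM of 1 gene (vertical axis, from 0) in the 3 EV_DOX and 3 EV libraries, with the mean and SD beside the points; in every panel all EV_DOX points lie above all EV points, most widely for Scand1 with means of 9.91 and 3.22 CPM.

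These genes are short, rich in G and C, or without introns. In GENCODE M21 on GRCm38, Scand1 lies on the minus strand at chr2:156311847-156312704 with 2 exons, its longest transcript has 759 bases and a GC content of 68.4%, and Cnbd2 overlaps it on the plus strand. Phospho1 (chr11:95824499-95832140, plus strand) has 3 exons and a GC content of 60.6%, and overlaps Zfp652 and Abi3. Mafa (chr15:75745490-75748228, minus strand, GC content 65.0%), Bmyc (chr2:25706739-25707721, plus strand, 58.0%) and Ccdc85b (chr19:5453180-5457894, minus strand, 54.8%) each have a single exon. Bmyc overlaps A230005M16Rik and Ccdc85b overlaps Fosl1, both on the opposite strand. Whether the counting used strand is not given in the sources used here, so reads of the overlapped genes cannot be told from those of their partners. A single exon was annotated for 3 of the 5 genes, against 7.02% of all genes.

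The coding sequences show the base content. Below are the first 120 coding bases, 5′ to 3′, of the 3 called genes with the highest coding GC content and of the 3 genes with the lowest among the 12 named as lower further on. G and C are in capitals. Sequences are from GENCODE M21 on GRCm38.
Scand1: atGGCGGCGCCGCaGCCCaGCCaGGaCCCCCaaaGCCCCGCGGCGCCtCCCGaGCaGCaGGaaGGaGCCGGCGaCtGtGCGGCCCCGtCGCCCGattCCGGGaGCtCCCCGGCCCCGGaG
Mafa: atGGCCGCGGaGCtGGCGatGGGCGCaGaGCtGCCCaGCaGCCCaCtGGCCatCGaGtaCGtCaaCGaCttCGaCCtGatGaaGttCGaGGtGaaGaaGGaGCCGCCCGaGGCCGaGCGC
Ccdc85b: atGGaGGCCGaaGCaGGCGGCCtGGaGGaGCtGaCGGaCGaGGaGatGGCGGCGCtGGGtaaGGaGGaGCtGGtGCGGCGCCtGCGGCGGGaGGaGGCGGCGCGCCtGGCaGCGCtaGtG
Ube3a: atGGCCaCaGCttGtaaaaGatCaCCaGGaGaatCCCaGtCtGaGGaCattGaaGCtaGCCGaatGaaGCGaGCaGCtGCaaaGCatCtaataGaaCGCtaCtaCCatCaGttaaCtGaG
Ptpn4: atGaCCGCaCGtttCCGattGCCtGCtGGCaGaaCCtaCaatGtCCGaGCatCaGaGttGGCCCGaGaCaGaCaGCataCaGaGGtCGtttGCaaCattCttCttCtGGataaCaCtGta
Wwp1: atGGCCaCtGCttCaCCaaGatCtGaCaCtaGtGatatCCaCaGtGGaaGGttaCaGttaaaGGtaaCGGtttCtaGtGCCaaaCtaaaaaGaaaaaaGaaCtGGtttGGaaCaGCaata
In this stretch 78.3% of the bases of Scand1, 65.8% of those of Mafa and 73.3% of those of Ccdc85b are G or C, against 46.7% for Ube3a, 50.0% for Ptpn4 and 40.0% for Wwp1, and the median over 12057 genes with a coding sequence is 57.5%. Over the whole coding sequence, Scand1 has 75.6%, Mafa 71.1% and Ccdc85b 69.6% G and C, and Ube3a has 38.4%. The median of all coding sequences is 53.2%. The genes shown were picked by coding GC content, so the gap between them follows from the choice. Of the 12 named as lower, Xylt1 had 58.0%, above that median, and the others were below it.

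The genes next in rank on the higher side did not pass the threshold. Filling the list to 12 by the smallest unadjusted p, at no less than 5 CPM and with groups that do not overlap, added 7 genes. Pmvk, phosphomevalonate kinase of the cholesterol pathway, had 14.6, 16.1 and 12.8 CPM in EV_DOX and 8.94, 8.90 and 9.59 CPM in EV (log2 fold change 0.66, SE 0.11, adjusted p 0.0738, edgeR). Lbx1, a homeobox factor of migrating limb muscle precursors, had 68.8, 81.4 and 82.6 CPM in EV_DOX and 55.2, 56.4 and 51.5 CPM in EV (0.51, SE 0.09). Jund, a subunit of the AP-1 transcription factor, had 18.4, 25.0 and 20.8 CPM in EV_DOX and 13.7, 13.2 and 9.90 CPM in EV (0.80, SE 0.14). Lbx1 and Jund both had an adjusted p of 0.0991 in edgeR.

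Cebpb, a leucine zipper factor of inflammatory and stress responses, had 9.20, 12.9 and 16.6 CPM in EV_DOX and 7.13, 7.62 and 4.37 CPM in EV, a log2 difference of 1.01 (SE 0.21, adjusted p 0.258, edgeR). Cited4, a transcriptional coactivator that binds CBP and p300, had 15.6, 16.7 and 17.2 CPM in EV_DOX and 10.5, 10.3 and 10.1 CPM in EV, a difference of 0.68 (SE 0.13). The proton pump subunit Atp6v0c (0.54, SE 0.10) and the zinc finger repressor Thap7 (0.63, SE 0.13) completed the 12. Over these 12 genes the median transcript GC content was 61.1% and the median length 1586 bases, against 49.7% and 3432 bases over all genes, and 6 of the 12 had a single exon. They were picked by their p in this comparison, so their fold changes are a description.

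On the lower side 0 genes passed. The 12 named as lower were picked by smallest unadjusted p, at no less than 5 CPM and with groups that do not overlap. Their adjusted p-values ran from 0.244 upward in edgeR. Aqp4, the water channel in the membrane of fast fibres, had 41.5, 47.0 and 46.2 CPM in EV_DOX and 63.3, 70.8 and 61.2 CPM in EV (log2 fold change -0.53, SE 0.11, adjusted p 0.244, edgeR). Xylt1, which starts the sugar chains of proteoglycans, had 8.03, 7.44 and 7.04 CPM in EV_DOX and 12.0, 11.1 and 11.3 CPM in EV (-0.61, SE 0.13). C7, a terminal complement component, had 7.37, 7.75 and 5.87 CPM in EV_DOX and 12.9, 8.90 and 12.4 CPM in EV (-0.70, SE 0.17). That the groups were apart in these 3 genes follows from how they were picked. The margin was wide for Aqp4 and Xylt1 and narrow for C7.

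The ubiquitin ligases Wwp1 (-0.32, SE 0.08), Trim23 (-0.32, SE 0.08) and Ube3a (-0.32, SE 0.08) were among the 12, with Ube3a at 100.4, 95.2 and 92.6 CPM in EV_DOX and 119.8, 123 and 116 CPM in EV. The others were Polr3f, a subunit of RNA polymerase III (-0.44, SE 0.10), the endocytic adaptor Sh3kbp1 (-0.51, SE 0.12), the phospholipid carrier Pitpnc1 (-0.43, SE 0.10), the class IIa histone deacetylase Hdac9 (-0.57, SE 0.14), the pantothenate kinase Pank3 of coenzyme A synthesis (-0.37, SE 0.10) and the tyrosine phosphatase Ptpn4 (-0.38, SE 0.10). Polr3f was the tightest, at 12.2 to 12.4 CPM in EV_DOX and 16.2 to 17.5 CPM in EV. The median GC content of the 12 was 41.6% and their median transcript length 6878.5 bases, and 0 of the 12 had a single exon. With the GC content and length offset, their median log2 fold change was -0.34, against -0.44 in the main fit. The smallest in size was then -0.12, and 9 of the 12 kept an unadjusted p under 0.05 in edgeR.

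**Figure D2:**
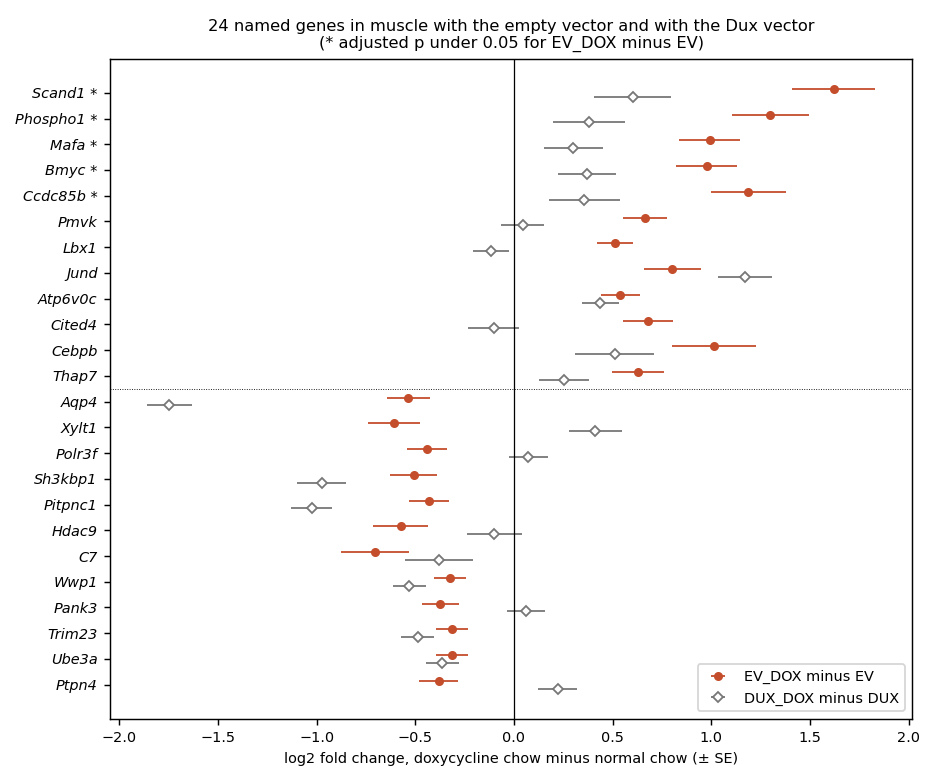
The 24 named genes. Horizontal axis: log2 fold change with its SE, doxycycline chow minus normal chow, in empty vector muscle (filled circles) and Dux muscle (open diamonds); the 12 genes above the dotted line were picked as higher and the 12 below as lower in EV_DOX, and asterisks mark adjusted p under 0.05 there. The diamonds of Scand1 (0.60), Jund (1.17) and Atp6v0c (0.44) are also to the right of 0, and those of Lbx1 (-0.11) and Cited4 (-0.10) are not.

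The link with GC content and length ran through the whole transcriptome. Across 12722 genes with an annotation, the EV_DOX minus EV log2 fold change had a Spearman correlation of 0.26 with transcript GC content and of -0.38 with transcript length. Genes share libraries and the 2 properties are themselves correlated (-0.25), so these values are descriptions. In 10 bins of equal size by length, the median log2 fold change went down from 0.13 in the shortest genes to -0.14 in the longest, and over 10 bins of GC content it went up from -0.07 to 0.10. In the bin of shortest genes, 136 genes were higher and 19 lower at an unadjusted p under 0.05, and in the bin of longest genes 5 were higher and 158 lower.

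Single libraries differed in the same properties, and not by chow alone. Against the mean of the 6 libraries, the correlation of a gene's deviation with length was -0.41 in EV_DOX 3, -0.28 in EV_DOX 2 and 0.17 in EV_DOX 1. It was 0.35 in EV 1, 0.24 in EV 3 and -0.04 in EV 2. EV_DOX 1 thus sided with EV 1 and EV 3 in length. For GC content the values were 0.20, 0.03 and 0.11 in EV_DOX 1, 2 and 3, and -0.05, -0.22 and -0.09 in EV 1, 2 and 3. For DUX_DOX minus DUX the correlations were 0.11 with GC content and 0.02 with length. With an offset for both properties in the model, 0 genes passed in edgeR and the 5 genes kept log2 fold changes between 0.76 (Mafa) and 1.22 (Scand1). The part of RNA quality or library preparation in these trends was not tested.

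**Figure D3:**
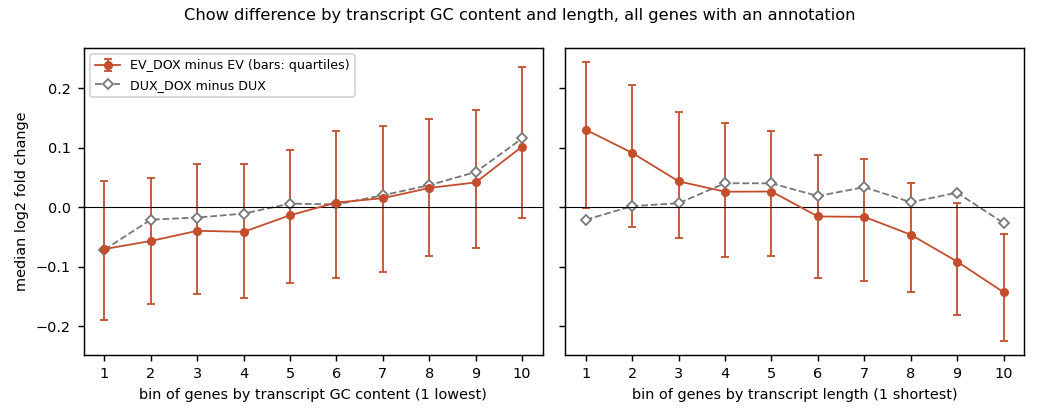
Median log2 fold change (vertical axis) of the genes in each of 10 bins by transcript GC content (left) and length (right), for EV_DOX minus EV (filled, bars from the lower to the upper quartile) and DUX_DOX minus DUX (open). With the empty vector the medians run from -0.07 to 0.10 over GC content and from 0.13 to -0.14 over length; in Dux muscle the length medians stay between -0.03 and 0.04.

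Mitochondrial genes were near level between the chows when encoded in the organelle. The 48 lists of genes used from here on had 0 members past the threshold in any list, so the lists are described by counts and medians beside those of all genes, whose median log2 fold change was -0.004. The 9 measured mitochondrially encoded genes had a median of 0.01. mt-Co1, a core subunit of cytochrome oxidase made on mitochondrial ribosomes, had 47224, 46136 and 53677 CPM in EV_DOX and 51107, 52893 and 52624 CPM in EV (log2 fold change -0.09, SE 0.12, adjusted p 0.889, edgeR). The groups overlapped. The complex I subunits mt-Nd1 (-0.04, SE 0.16), mt-Nd2 (0.01, SE 0.16), mt-Nd4 (-0.03, SE 0.14) and mt-Nd5 (-0.06, SE 0.14) and the cytochrome b gene mt-Cytb (0.02, SE 0.13) lay near 0. The ribosomal RNAs mt-Rnr1 (0.13, SE 0.16) and mt-Rnr2 (0.03, SE 0.13) did too, although poly-A selection limits how they are read. mt-Nd6, the only one of these genes encoded on the light strand, had 97.7, 138 and 112 CPM in EV_DOX and 102, 85.8 and 67.7 CPM in EV. Its log2 fold change of 0.44 (SE 0.17) had an unadjusted p of 0.0189 and an adjusted p of 0.572 in edgeR. It overlaps mt-Nd5 on the opposite strand, and without a known strand setting its reads cannot be told from those of mt-Nd5.

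Nuclear genes of the respiratory chain leaned upward as a list. Of 75 subunits measured, 61 had a positive log2 fold change (81.3%, against 48.9% of all genes), with a median of 0.13. At an unadjusted p under 0.05, 4 were higher and 0 lower, which is 5.33% of the list against 7.83% of all genes. Cox5b, a cytochrome oxidase subunit, had 267, 307 and 366 CPM in EV_DOX and 244, 242 and 205 CPM in EV (0.44, SE 0.12, adjusted p 0.414, edgeR), and the complex I subunit Ndufs5 had a difference of 0.48 (SE 0.15). Summed over the list, the libraries did not divide by chow, with 20037, 22987 and 27421 CPM in EV_DOX and 21815, 25605 and 20933 CPM in EV (exact permutation p 0.7). The median transcript of these subunits is 1046 bases, and with the offset for GC content and length the median log2 fold change was 0.02. Without EV_DOX 3 the median was -0.0073, and without EV_DOX 1 it was 0.24.

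The proteins of the mitochondrial ribosome, the particle that doxycycline binds, gave a like picture. Of 76 measured, 57 had a positive log2 fold change (75%), the median was 0.10, and 12 were higher and 0 lower at an unadjusted p under 0.05, which is 15.8% of the list in either direction against 7.83% of all genes. Mrps12, a protein of the small subunit, had 24.5, 24.6 and 26.5 CPM in EV_DOX and 20.6, 18.8 and 15.1 CPM in EV (0.47, SE 0.11, adjusted p 0.385, edgeR). Mrps34 had 29.6, 32.7 and 39.8 CPM in EV_DOX, against 20.7, 28.4 and 21.3 CPM in EV (0.54, SE 0.14). Both were apart between the groups. With the offset the median of the list was 0.04, and without EV_DOX 3 it was -0.011. The factors of mitochondrial translation and transcription had a median of -0.02, with Mtfmt, the formyltransferase of the initiator tRNA, at 0.34 (SE 0.13) and the initiation factor Mtif3 at 0.22 (SE 0.10), and the 20 mitochondrial chaperones and proteases had a median of -0.02 and 0 members at an unadjusted p under 0.05.

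The stress programmes that follow a mitochondrial translation block in cultured cells were not called. Of 32 measured genes of the Atf4 list, 20 were positive and the median was 0.06. Its members with the smallest p were Cebpb, described above, and Atf5, a relative of Atf4 that acts in the mitochondrial stress response, at 45.8, 60.2 and 58.9 CPM in EV_DOX and 31.8, 47.7 and 39.6 CPM in EV (0.47, SE 0.13, adjusted p 0.463, edgeR). The groups overlapped for Atf5. The unfolded protein response of the endoplasmic reticulum and the heat shock proteins both had medians of 0.04. Among 26 oxidative stress genes, the glutathione transferase Gstm2 stood at 0.37 (SE 0.13) and G6pdx, the first enzyme of the pentose phosphate pathway, at -0.47 (SE 0.16). Doxycycline chelates metal ions, and the 27 genes of metal handling had a median of 0.01, with the iron exporter Slc40a1 at -0.33 (SE 0.11).

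**Figure D4:**
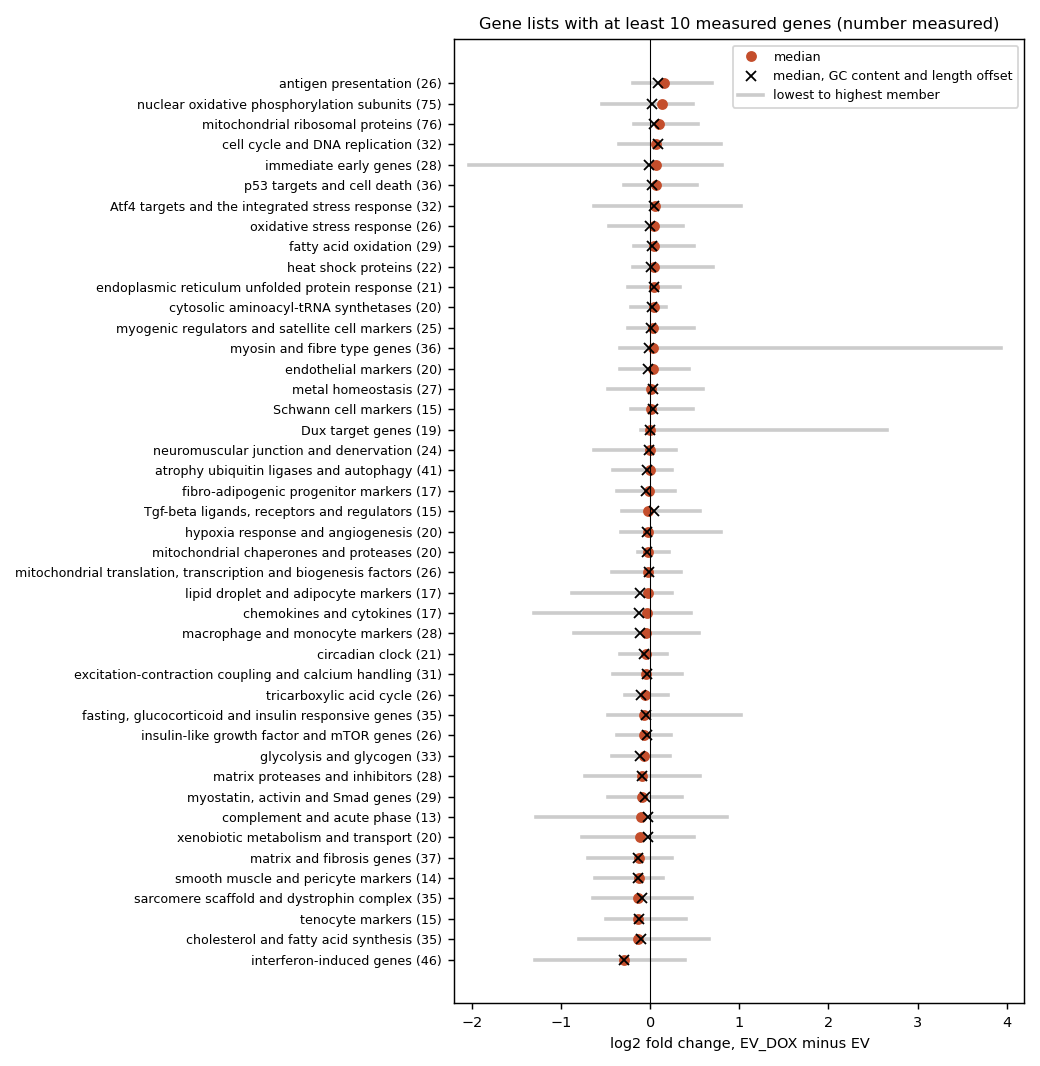
Gene lists with at least 10 measured genes, ordered by their median log2 fold change for EV_DOX minus EV (filled circles), with the lowest and highest member (grey line) and the median under the GC content and length offset (crosses). Medians run from -0.30 for interferon-induced genes to 0.16 for antigen presentation, and the crosses of the respiratory chain (0.02) and mitochondrial ribosome (0.04) lists lie closer to 0 than their circles.

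No gene of fuel metabolism passed the threshold. Pdk4, the kinase that shuts pyruvate out of mitochondria in fasting, had 254, 392 and 691 CPM in EV_DOX and 254, 336 and 148 CPM in EV, a log2 fold change of 0.86 with an SE of 0.41 (adjusted p 0.648, edgeR) and with groups that overlapped. Without EV_DOX 3 it was 0.39. The 29 genes of fatty acid oxidation had a median of 0.04, with the fatty acid carrier Fabp3 at 0.49 (SE 0.19) and the carnitine transferase Cpt1b at 0.39 (SE 0.22). Of 33 genes of glycolysis and glycogen, 4 were positive (12.1%, against 48.9% of all genes). The median was -0.08, or -0.12 with the GC content and length offset. At an unadjusted p under 0.05, 0 were higher and 2 lower, 6.06% of the list against 7.83% of all genes. The sums of the list overlapped between the chows (exact permutation p 0.7). Phka1, a subunit of phosphorylase kinase, which activates glycogen breakdown, was at 689.6, 641 and 652 CPM in EV_DOX and 844, 811 and 938 CPM in EV (-0.39, SE 0.12, adjusted p 0.466, edgeR), with groups that did not overlap.

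Lipid synthesis leaned downward. Of 35 measured genes of cholesterol and fatty acid synthesis, 9 were positive (25.7%, against 48.9% of all genes). At an unadjusted p under 0.05 5 were lower and 1, Pmvk, was higher, together 17.1% of the list against 7.83% of all genes. The median was -0.14, or -0.061 without EV 3. Scd1, the desaturase that makes oleate, had 17.1, 31.1 and 15.7 CPM in EV_DOX and 37.5, 27.2 and 46.9 CPM in EV (-0.81, SE 0.24, adjusted p 0.463, edgeR), and its groups overlapped. The list summed to 1020.3, 959.8 and 995 CPM in EV_DOX and 1127, 1025 and 1087 CPM in EV. These sums did not overlap, and the exact permutation p of 0.1 is the smallest that 3 libraries against 3 can give. Of the 48 lists 4 had sums that did not overlap (8.33%), which is no larger a share than the 12.1% of single genes without overlap, so these sums do not set the lists apart. The 21 circadian clock genes likewise had sums that did not overlap (exact permutation p 0.1), at 1424, 1207 and 1422 CPM in EV_DOX and 1445, 1525 and 1492 CPM in EV. The clock genes with the smallest p were Clock (-0.34, SE 0.11, adjusted p 0.526, edgeR) and the nuclear receptor Nr1d2 (-0.25, SE 0.09). The hour of tissue collection is not given in the labels.

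No contractile gene passed the threshold, and the list of sarcomere scaffold genes leaned downward. In 11 of 35 genes of the sarcomere scaffold and dystrophin complex (31.4%) all EV_DOX libraries were below all EV libraries, against 6.45% of all genes, and in 0 they were above, against 5.69%. The median log2 fold change was -0.14, or -0.09 with the GC content and length offset, and lay between -0.14 and -0.082 without any 1 library. Ankrd23, a stretch-responsive partner of titin, had 103, 87.4 and 99.8 CPM in EV_DOX and 110.3, 123 and 132 CPM in EV (-0.33, SE 0.09, adjusted p 0.463, edgeR). Dmd, dystrophin, had 135, 116 and 129 CPM in EV_DOX and 168, 157 and 140.5 CPM in EV (-0.29, SE 0.10). Among the alternative settings that left out no single library, the log2 fold change of Dmd was as small as -0.072. Ttn, titin, with the longest coding sequence of the genome, had 10942, 10661 and 11202 CPM in EV_DOX and 13471, 12967 and 12093 CPM in EV. The sums of the list did not overlap either, with an exact permutation p of 0.1.

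Calcium handling split by member. At an unadjusted p under 0.05, 2 of its 31 genes were higher and 4 lower, 19.4% of the list against 7.83% of all genes. The sums of its 31 genes were lower in each EV_DOX library, at 16156, 15088 and 15564 CPM, than in each EV library, at 16993, 16243 and 16868 CPM (exact permutation p 0.1). Jsrp1, a protein of the junction between T-tubule and sarcoplasmic reticulum, went the other way, at 214, 239.8 and 251 CPM in EV_DOX and 192, 182 and 174 CPM in EV (0.36, SE 0.09, adjusted p 0.41, edgeR). Its log2 fold change was as small as 0.13 among the alternative settings that left out no single library. Kcnj2, the inward rectifier potassium channel, had 48.4, 42.2 and 50.2 CPM in EV_DOX and 62.0, 72.5 and 51.2 CPM in EV (-0.40, SE 0.12). Among myogenic regulators, Myod1, the factor that commits cells to the muscle lineage, stood at 27.7, 23.5 and 31.8 CPM in EV_DOX and 21.4, 18.0 and 19.5 CPM in EV (0.49, SE 0.13, adjusted p 0.414, edgeR), and Met, the receptor of satellite cell activation, at -0.25 (SE 0.10).

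The myostatin pathway had 0 genes past the threshold. Mstn, myostatin, the brake on muscle growth, had 36.0, 44.5 and 41.9 CPM in EV_DOX and 31.6, 51.8 and 47.7 CPM in EV (log2 fold change -0.10, SE 0.16, adjusted p 0.907, edgeR). Its receptor Acvr2b (-0.48, SE 0.34, adjusted p 0.739) and its binding inhibitor Fst (-0.38, SE 0.36, adjusted p 0.814), both under 5 CPM in every library, did not pass in edgeR either. Of 29 measured genes of the list, 3 were lower and 0 higher at an unadjusted p under 0.05, which is 10.3% of the list against 7.83% of all genes, and the median was -0.10, or -0.019 without EV 3. The signal carriers Smad4 (-0.18, SE 0.08) and Smad3 (-0.24, SE 0.11) had the smallest p, with Smad3 at 143, 126 and 129 CPM in EV_DOX and 149.9, 145 and 175 CPM in EV. The atrophy ligases gave Trim63 170.1, 190.1 and 183 CPM in EV_DOX and 125, 197 and 185 CPM in EV (0.10, SE 0.14, adjusted p 0.894, edgeR), and put Fbxo32 at -0.02 on the log2 scale (SE 0.18, adjusted p 0.992, edgeR). In the list of 41 ligase and autophagy genes the smallest p belonged to the ligase Traf6 (-0.42, SE 0.13) and the lysosomal protein Lamp2 (-0.16, SE 0.07).

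Matrix genes differed widely between libraries of the same chow. The inhibition of matrix metalloproteinases by doxycycline named above is of the enzymes, while the values here are of RNA. Of 28 measured matrix proteases and inhibitors, 0 reached an unadjusted p under 0.05, and the smallest p were those of the protease Adamts1 (-0.18, SE 0.10) and of Mmp3, stromelysin (-0.73, SE 0.53), which stood at or under 1.65 CPM. Of 37 genes of the extracellular matrix, 6 were positive and the median was -0.13, with Vcan at -0.47 (SE 0.31) and Fbln1 at -0.37 (SE 0.30), and 0 reached an unadjusted p under 0.05. Without EV_DOX 1 the median was -0.41, and without EV_DOX 3 it was 0.17. Col1a1, the chain of type I collagen, had 1609, 527 and 211 CPM in EV_DOX and 686, 299 and 1577 CPM in EV. Its log2 fold change was -0.13 (SE 0.58) and turned to 0.67 without EV 3 and to -1.21 without EV_DOX 1. EV_DOX 1 and EV 3 were the high libraries, and the 15 measured tenocyte markers followed them, with sums of 1300, 281 and 192 CPM in EV_DOX and 445, 235 and 1331 CPM in EV. The median log2 fold change of these markers was -0.14 with all libraries, -1.72 without EV_DOX 1 and 0.77 without EV 3. Fmod, a tendon proteoglycan, had 499.6, 92.4 and 57.1 CPM in EV_DOX and 121, 78.6 and 540.4 CPM in EV, and Thbs4, a tendon thrombospondin, had 315, 87.1 and 59.6 CPM in EV_DOX and 128, 82.3 and 350.2 CPM in EV. The share of tendon in these samples was not tested.

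Slow fibre genes were high in one EV_DOX library. Myh7, the slow myosin heavy chain, had 1.24, 116 and 6.42 CPM in EV_DOX and 3.06, 3.53 and 1.46 CPM in EV, and its log2 fold change of 3.94 (SE 1.41, adjusted p 0.542, edgeR) was 0.51 without EV_DOX 2. The slow troponins Tnnt1, Tnnc1 and Tnni1 had 38.3, 31.4 and 17.0 CPM in EV_DOX 2, and at most 6.26, 3.60 and 3.07 CPM in the other 5 libraries. Their log2 fold changes were 1.83, 2.50 and 1.59 with all libraries, and 0.27, 0.17 and 0.11 without EV_DOX 2. Myl2, the slow regulatory light chain, was picked as the member of its list with the smallest p. It had 2.34, 35.2 and 3.60 CPM in EV_DOX and 1.18, 1.44 and 0.921 CPM in EV (3.53, SE 1.02, adjusted p 0.463, edgeR), and its log2 fold change was 1.33 without EV_DOX 2. The slow essential light chain Myl3 did not follow EV_DOX 2, at 50.3, 44.4 and 40.9 CPM in EV_DOX and 28.8, 43.1 and 28.8 CPM in EV. The Schwann cell markers were also high in EV_DOX 2, with sums of 78.0, 251 and 118 CPM in EV_DOX and 121, 153 and 112 CPM in EV. Their median log2 fold change was 0.0067 with all libraries and -0.40 without EV_DOX 2. Among the Dux vector muscles, the library with the same number, DUX_DOX 2, had 69.3 CPM of Myh7 and 21.5 CPM of Tnnt1, against 3.50 and 4.02 CPM of Myh7 in DUX_DOX 1 and 3. The genes Myh7, Tnnt1, Tnnc1 and Tnni1, like Col1a1, Fmod, Thbs4 and the interferon GTPases below, were chosen after their values were seen.

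Interferon genes had the lowest median of the 48 lists, and it was -0.045 without EV 2. Of 46 measured genes 10 were positive and the median log2 fold change was -0.30, yet 0 were lower and 1, Irf3, was higher at an unadjusted p under 0.05. Irf3, the transcription factor that first induces interferon, had 21.7, 22.7 and 21.4 CPM in EV_DOX and 18.2, 17.3 and 14.8 CPM in EV (0.39, SE 0.11, adjusted p 0.463, edgeR), and Ifit3b stood at -0.54 (SE 0.28), or -0.27 without EV 2. The list summed to 422, 366 and 362 CPM in EV_DOX and 397, 673 and 358 CPM in EV, high only in EV 2. Iigp1, an interferon-induced GTPase that attacks the vacuoles of parasites, had 20.2, 15.2 and 12.4 CPM in EV_DOX and 13.2, 79.7 and 14.5 CPM in EV. Its log2 fold change was -1.16 (SE 0.70) with all libraries and 0.21 without EV 2. The GTPases Igtp (-1.01), Irgm1 (-0.54) and Irgm2 (-0.88) moved with it, at 51.5, 47.1 and 77.8 CPM in EV 2, and were 0.22, 0.02 and -0.07 without it. In Dux vector muscle on normal chow, DUX 1 and DUX 2 had 102 and 106 CPM of Iigp1 and DUX 3 had 14.9 CPM, while the DUX_DOX libraries had 10.7 to 23.2 CPM.

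**Figure D5:**
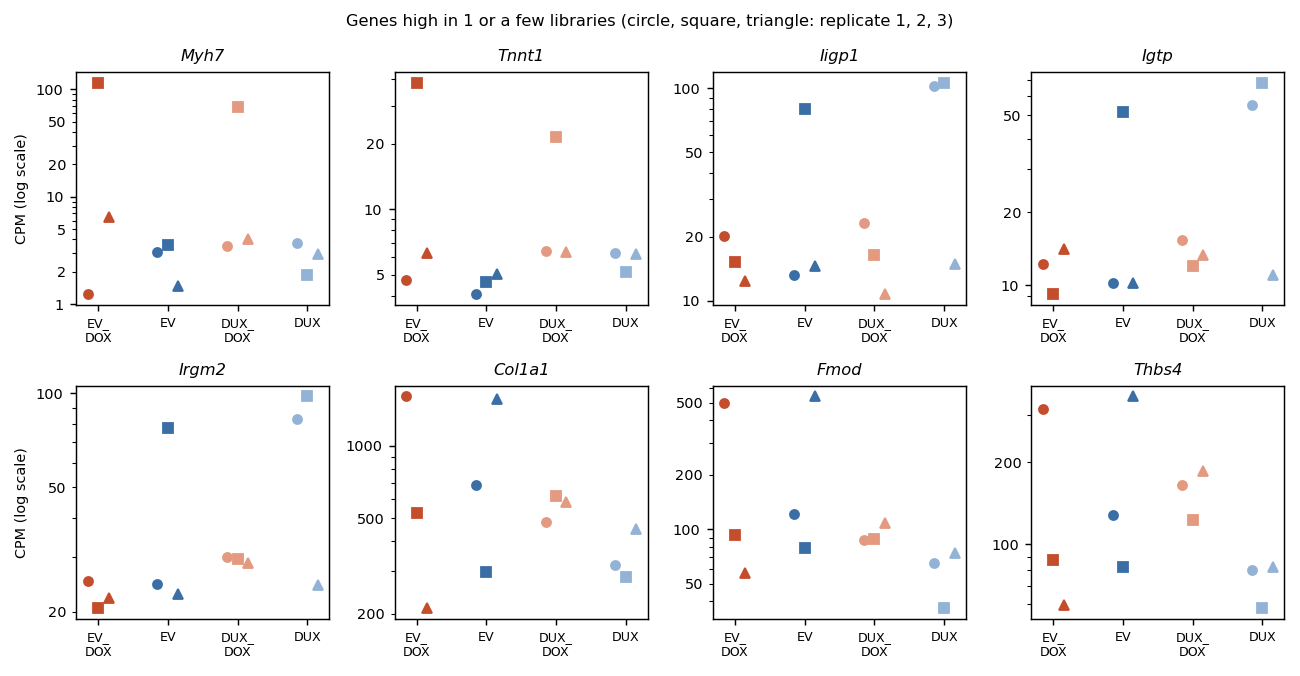
Levels of 8 genes in CPM (log axis) in the 3 libraries of each group, with a marker shape per replicate number. Myh7 and Tnnt1 are high in EV_DOX 2 and DUX_DOX 2, the GTPases Iigp1, Igtp and Irgm2 in EV 2, DUX 1 and DUX 2, and Col1a1, Fmod and Thbs4 in EV_DOX 1 and EV 3.

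Leucocyte genes did not divide the chows. The 28 macrophage markers summed to 233, 221 and 168 CPM in EV_DOX and 171, 188 and 268 CPM in EV (exact permutation p 0.9), with a median log2 fold change of -0.04. Aif1 (-0.86, SE 0.38) and the lineage factor Spi1 (0.55, SE 0.33), both under 3 CPM, had the smallest p and opposite signs. Only 1 of 12 neutrophil markers and 2 of 22 lymphocyte markers were in the table, in which the lowest mean is 10 counts. The 26 antigen presentation genes had the highest median of the lists with at least 10 genes, 0.16, or 0.09 with the offset and 0.067 without EV_DOX 1, with 20 positive and 0 at an unadjusted p under 0.05. Its leading members were H2-M3 (0.51, SE 0.24) and the class II chain H2-Eb1, at 30.5, 27.0 and 25.2 CPM in EV_DOX and 17.6, 24.8 and 19.6 CPM in EV (0.41, SE 0.20, adjusted p 0.648, edgeR). The acute phase protein Hp had 0.584, 0.929 and 1.49 CPM in EV_DOX and 2.82, 1.52 and 2.92 CPM in EV (-1.28, SE 0.38), and complement C4b stood at -0.76 (SE 0.32).

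The chow contrast in Dux muscle uses none of the 6 libraries above, though it may come from the same mice, and it holds the Dux induction as well. All 5 genes that rose in EV_DOX had positive log2 fold changes for DUX_DOX minus DUX, of 0.60 for Scand1 (adjusted p 0.0318, edgeR), 0.38 for Phospho1, 0.30 for Mafa, 0.37 for Bmyc and 0.36 for Ccdc85b, and Scand1 alone passed, where 16.5% of all genes were called higher. Scand1 had 9.60, 8.65 and 11.1 CPM in DUX_DOX and 5.85, 6.62 and 6.80 CPM in DUX. Of the 12 genes named as higher 10 had the same sign in Dux muscle, 3 of them past the threshold, and of the 12 named as lower 8 had the same sign, 6 of them past the threshold, where 13.1% of all genes were called lower. Aqp4 was among these, at -1.75 (adjusted p 1.17e-07, edgeR) in Dux muscle. Over all 12751 genes, the log2 fold changes for EV_DOX minus EV and DUX_DOX minus DUX had a Spearman correlation of 0.15. The share of all genes with the same sign was not worked out, so the counts of genes with the same sign are descriptions. The interaction of chow and vector, which tests whether the chow difference itself differs between the vectors, was called for 1326 genes (10.4%). The named genes were picked by their EV_DOX minus EV difference, which the interaction subtracts, so no count of them is read against that share.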

How the data were processed

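RNA-seq of 12 libraries in 4 groups of 3 was used, from 200 ng of poly-A selected RNA each, per the labels. The values are raw read counts per gene deposited by the authors, for which the submitters' processing notes name GRCm38, featureCounts, STAR and bcl2fastq 2.17.1.14. No source used here gives other versions, the annotation or the strand setting. The table holds 12752 genes, and 3 symbols have 2 identifiers each.

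Counts of all 12 libraries were fitted with 1 mean per group in edgeR 4.0.16 (R 4.3.3), with TMM factors, the default low-count filter and the quasi-likelihood F test, two-sided, adjusted over 12751 genes (median biological coefficient of variation 12.3%). Log2 fold changes use a prior count of 0.125. Each SE is the absolute log2 fold change divided by the square root of the F statistic. It restates the F test and is no separate estimate of spread. CPM were computed on TMM-scaled totals, and sums were compared by exact two-sided permutation. DESeq2 1.42.0, limma 3.58.1 (voom) and other settings were alternatives. GENCODE M21 gave GC content and length of the longest transcript for 99.8% of genes.

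Named genes were those past the threshold at 5 CPM or more without overlap, filled to 12 a side by p, the 2 members of smallest p of each list described, 5 fixed genes and the mitochondrially encoded genes, and 2 of these are not reported here. The members and the 48 lists were chosen with earlier results of these data known. The steps were tested on simulated data.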

Additional observations from a re-analysis of the deposited data

Results flagged for a closer look

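The results below stood out because the chow difference of a named gene differed between Dux muscle and empty vector muscle in edgeR's interaction test, adjusted over 12751 genes. Values are log2 differences, (DUX_DOX minus DUX) minus (EV_DOX minus EV), and the chow contrast in Dux muscle holds the Dux induction as well. All but Fbxo32 were picked by a small p for EV_DOX against EV, a difference that the interaction subtracts, so their values are descriptions and their p-values are too small for a test of the vectors. Among genes named as higher in EV_DOX the interaction was -1.02 for Scand1 (adjusted p 0.0390), -0.92 for Phospho1 (0.0423), -0.62 for Pmvk (0.0240), -0.63 for Lbx1 (0.00753) and -0.78 for Cited4 (0.0144). Among genes named as lower it was -1.21 for Aqp4 (0.000278), -0.60 for Pitpnc1 (0.0181), 1.02 for Xylt1 (0.00364), 0.52 for Polr3f (0.0341) and 0.60 for Ptpn4 (0.0149). Aqp4 and Pitpnc1 had negative log2 fold changes with both vectors, of larger size in Dux muscle, and Xylt1, at 0.41 in Dux muscle and -0.61 in empty vector muscle, had opposite signs. For the atrophy ligase Fbxo32 the interaction was -0.89 (0.0446), with -0.91 in Dux muscle and -0.02 in empty vector muscle. These are not all the genes named. Members named with their lists passed too, among them Slc40a1 (1.19, adjusted p 0.00031), G6pdx (0.90, 0.022), Traf6 (0.64, 0.043), mt-Nd6 (-1.16, 0.0069), Myl3 (-0.92, 0.013), Cox5b (-0.68, 0.018) and Mrps34 (-0.73, 0.027). In Dux muscle mt-Nd6 (-0.72), Cox5b (-0.24) and Mrps34 (-0.19) had negative log2 fold changes.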

How the results depend on the processing

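The number of genes past the threshold was 5 with RLE factors and without the low-count filter. It was 12 with DESeq2 (11 higher and 1 lower, Aqp4), 0 with limma-voom, 1 with upper-quartile factors and 0 in a fit of the empty vector libraries alone. Offsets added after the data were seen gave 0 for GC content, 2 for transcript length (Scand1 and Phospho1) and 0 for both. Leaving out 1 library gave 0 to 10 genes, with 10 without EV_DOX 1, 1 without EV_DOX 2, 0 without EV_DOX 3, 2 without EV 1 and 0 without EV 2 or EV 3. The replicate numbers were not taken as pairs. The deviations of same-numbered libraries correlated at 0.20, 0.13 and -0.42 for EV_DOX and EV, at -0.11, 0.094 and 0.0048 for the legs of EV_DOX and DUX_DOX, and at -0.10, 0.18 and 0.12 for those of EV and DUX. No label ties the 2 legs of a mouse to libraries, and the fit treats them as independent. A replicate block gave 0 genes, with all 12 libraries and with the empty vector libraries alone. The 5 genes kept their sign in 17 of 17 alternatives and passed in 8 (Scand1), 5 (Phospho1 and Ccdc85b) or 4 (Mafa and Bmyc). Their adjusted p ran up to 0.770. Where 0 genes passed, 727 to 1298 had an unadjusted p under 0.05. The cause of these changes was not tested.

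Of 90 genes named, 74 kept their sign throughout, and those that turned had small fold changes or rested on 1 library. Without 1 library 37 of the 90 moved by over 1.5 times, none of them among the 5 genes past the threshold. Fbxo32 turned to 0.0021 with upper-quartile factors, 0.015 with the GC content offset, 0.073 with the length offset and 0.093 with both. The GC content offset turned mt-Nd1 to 0.021, mt-Nd4 to 0.039 and mt-Nd5 to 0.0088, the length offset turned mt-Rnr1 to -0.016, mt-Rnr2 to -0.073, mt-Nd2 to -0.12 and mt-Cytb to -0.11, and both turned mt-Nd2 to -0.030 and mt-Cytb to -0.019. Without 1 library the log2 fold change ran from -1.21 to 0.67 for Col1a1, -0.14 to 0.16 for Fbxo32, -1.72 to 1.12 for Fmod, -1.38 to 0.22 for Igtp, -1.56 to 0.21 for Iigp1, -0.77 to 0.019 for Irgm1, -0.29 to 0.040 for Mstn, -1.35 to 0.55 for Thbs4, -0.077 to 0.23 for Trim63, -0.053 to 0.11 for mt-Cytb, -0.16 to 0.078 for mt-Nd1, -0.095 to 0.15 for mt-Nd2, -0.11 to 0.090 for mt-Nd4, -0.14 to 0.044 for mt-Nd5, -0.041 to 0.31 for mt-Rnr1 and -0.11 to 0.17 for mt-Rnr2. With 3 libraries a side, small differences in genes of a few CPM are not detectable at this depth.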
